A study of Homo sapiens with 24 samples.

Results

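This section describes 9 genes of MHC class I antigen presentation: HLA-B, HLA-C, HLA-E, HLA-F, B2M, TAP1, TAP2, TAPBP and NLRC5. They were taken by name from a table of 60668 gene rows, and each name matched 1 Ensembl row. All 9 passed the filter on low counts, which left 22158 genes for testing. RNA-seq was done on MCF-10A cells, which are human breast epithelial cells immortalised without becoming tumorigenic, grown in 3D on Matrigel (a basement membrane gel). The parental line was compared with MCF-10A MYC-ER, in which MYC is joined to the ligand-binding portion of the oestrogen receptor. The fusion protein becomes active when 4-hydroxytamoxifen (4-OHT) binds it. Both lines received 1 µM 4-OHT for 0, 8, 24 or 48 h and were all collected on day 5, with 3 replicates in each of the 8 groups. The parental groups show what 4-OHT does without the fusion. The labels do not say which promoter drives the fusion, whether the MYC-ER line is 1 clone, whether the 0 h cells received solvent, or which libraries shared a sequencing lane. They also do not say how independent the replicates are, so p-values measure the spread between these samples, which may be technical.

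MHC class I molecules display peptides from inside the cell to cytotoxic T cells. Peptides cut by the proteasome are pumped into the endoplasmic reticulum by the TAP transporter, and tapasin holds the empty class I molecule at the transporter until a peptide binds. In epithelial cells these genes are expressed at a basal level and are raised by interferons through IRF1 and by the coactivator NLRC5. Low class I expression is a well-known way in which tumour cells escape T cells.

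The promoters are shown first, because class I genes are known to share regulatory factors and the results below turn on which of them moved together. RefSeq promoter windows (GRCh38.p14, 300 bases, from 250 bases before the transcript start to 50 after it) were found for 7 of the 9 genes. There was no entry for HLA-E and NLRC5. The 250 bases before the start are printed 5′ to 3′ on the strand of the gene for HLA-B, a classical heavy chain, for B2M, TAP1 and TAPBP, which fell in MYC-ER cells, and for TAP2, which did not fall with them. HLA-B lies at chr6:31357180-31357429 on the minus strand, B2M at chr15:44711267-44711516 on the plus strand, TAP1 at chr6:32853705-32853954 on the minus strand, TAPBP at chr6:33314079-33314328 on the minus strand and TAP2 at chr6:32838740-32838989 on the minus strand. Capitals mark matches on either strand to an interferon regulatory factor (IRF) core AANNGAAA, an NF-kB motif, a cyclic AMP response half-site TGACG or a CCAAT box.
HLA-B: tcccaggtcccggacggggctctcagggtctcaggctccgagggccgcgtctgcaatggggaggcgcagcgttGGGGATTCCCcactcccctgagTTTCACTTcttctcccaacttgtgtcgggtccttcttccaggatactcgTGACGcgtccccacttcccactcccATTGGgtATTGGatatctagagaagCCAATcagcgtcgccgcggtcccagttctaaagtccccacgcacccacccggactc
B2M: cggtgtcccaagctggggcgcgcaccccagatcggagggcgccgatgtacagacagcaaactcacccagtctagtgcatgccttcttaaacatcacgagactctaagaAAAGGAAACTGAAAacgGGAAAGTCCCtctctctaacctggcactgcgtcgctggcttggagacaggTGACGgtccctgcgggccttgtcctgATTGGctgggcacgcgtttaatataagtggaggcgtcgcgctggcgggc
TAP1: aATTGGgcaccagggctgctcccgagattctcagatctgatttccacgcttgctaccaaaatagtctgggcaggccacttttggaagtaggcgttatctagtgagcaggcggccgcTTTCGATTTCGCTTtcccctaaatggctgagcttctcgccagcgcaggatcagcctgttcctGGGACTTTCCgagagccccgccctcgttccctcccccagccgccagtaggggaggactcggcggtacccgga
TAPBP: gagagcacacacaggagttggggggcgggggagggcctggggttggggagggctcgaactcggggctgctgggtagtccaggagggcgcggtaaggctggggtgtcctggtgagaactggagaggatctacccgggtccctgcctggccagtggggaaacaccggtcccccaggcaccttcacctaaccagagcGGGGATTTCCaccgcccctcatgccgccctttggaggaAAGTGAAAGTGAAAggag
TAP2: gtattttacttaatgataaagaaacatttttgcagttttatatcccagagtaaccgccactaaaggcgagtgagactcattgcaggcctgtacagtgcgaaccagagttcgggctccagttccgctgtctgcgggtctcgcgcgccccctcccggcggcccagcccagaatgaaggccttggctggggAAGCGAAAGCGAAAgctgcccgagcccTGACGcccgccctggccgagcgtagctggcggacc

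The IRF core was present in all 7 windows, against 22.8% of 35116 RefSeq windows of the same length. B2M, TAP1, TAP2 and TAPBP each held 2 overlapping copies, which read as 1 run of capitals, and HLA-B, HLA-C and HLA-F held 1. In TAPBP the copies began 18 and 12 bases before the start, and in TAP1 134 and 128 bases before it. NF-kB letters were found in HLA-B, B2M, TAP1 and TAPBP (5.68% of all windows) and not in TAP2, HLA-C or HLA-F. The half-site TGACG was in HLA-B, HLA-C, B2M and TAP2 (24.6% of all windows), and CCAAT was in HLA-B, HLA-C, HLA-F, B2M and TAP1 (34.6%). No window of the 7 held the MYC E-box CACGTG (7.26% of all windows) or the STAT motif TTCNNNGAA (7.66%). These matches describe letters only.

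Library totals ran from 136860029 to 182438505 counts, a 1.33-fold range, and a count of 0 in the smallest library allows up to 0.0219 CPM (the count scaled to a common library total), taking 3 counts as the limit (counting error only). All 8 epithelial markers passed the filter, among them EPCAM, KRT14 and KRT18. The filter was run once over all libraries, so passing it does not show a level in each line. Among the leukocyte markers, CD3E and MS4A1 had 0 counts in every library and PTPRC had at most 2, whereas CSF1R, CD68 and CD14 stood at 41.4, 16.7 and 3.71 CPM on average in MYC-ER cells at 0 h. Parental 0 h was the group with the widest replicate spread for 7 of the 9 genes (all but TAPBP and NLRC5), with HLA-C at a SD of 35.1 CPM there and 4.33 to 7.84 in the other groups. The MYC row rose at 8 h of 4-OHT in MYC-ER cells (log2 change 1.04) and was below 0 h at 24 h (-0.27) and 48 h (-0.64). At 8 h ESR1 fell (-5.37, at under 1 CPM throughout), and the counts do not separate fusion from native MYC. CPM are relative to the whole library, so fewer cells of a type and less RNA per cell cannot be told apart.

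At 0 h the MYC-ER line carried more class I transcript than the parental line. B2M, TAP1, TAPBP, HLA-B, HLA-E, HLA-F and NLRC5 were higher, by 1.21-fold (HLA-F) to 2.14-fold (TAP1), HLA-C was lower by 1.28-fold, and TAP2 did not pass the test. Thus 8 of 9 genes differed, 7 higher and 1 lower, where 64.3% of all genes differed, 31.6% higher and 32.7% lower (edgeR quasi-likelihood test, adjusted p under 0.05 over all genes). The median log2 difference was 0.57 over the 9 genes and 0.00 over all genes, and 7 genes did not overlap between the lines (65.0% of all genes). Without MYC-ER 0 h replicate 2, MYC-ER 0 h replicate 3 or parental 0 h replicate 2, HLA-F no longer passed (log2 0.25, 0.24 and 0.16). HLA-C lost its call when each library's trend on GC content was removed (-0.05, adjusted p 0.251), and was higher in MYC-ER cells once trends on GC and length were both removed (0.17, adjusted p 0.000108).

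After 4-OHT, 7 of the 9 genes fell in MYC-ER cells within 8 h, stayed low at 24 h, and were higher again at 48 h. At 8 h, 8 of 9 genes passed the test, where 67.6% of all genes did. Of these, 7 were lower (35.4% of all genes) and 1, NLRC5, was higher (32.2%). The replicates of 8 genes did not overlap between 0 and 8 h, as for 73.5% of all genes. At 24 h the count was again 8 (61.6% of all genes), with 7 lower (31.2%) and 1 higher (30.4%). Here too 8 genes did not overlap (70.7% of all genes). The median log2 change of the 9 genes was -0.57 at 8 h and -0.58 at 24 h, against -0.10 and -0.02 over all genes. Between 24 and 48 h all 9 genes moved (53.7% of all genes), 8 up (28.2%) and TAP2 down (25.5%), with a median log2 change of 0.94 against 0.06 and no overlap for any of the 9 (68.0% of all genes). These counts of 8, 8 and 9 also stood without any 1 of the MYC-ER libraries. Because most genes in the table moved, the counts alone do not set these 9 apart.

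**Figure D1:**
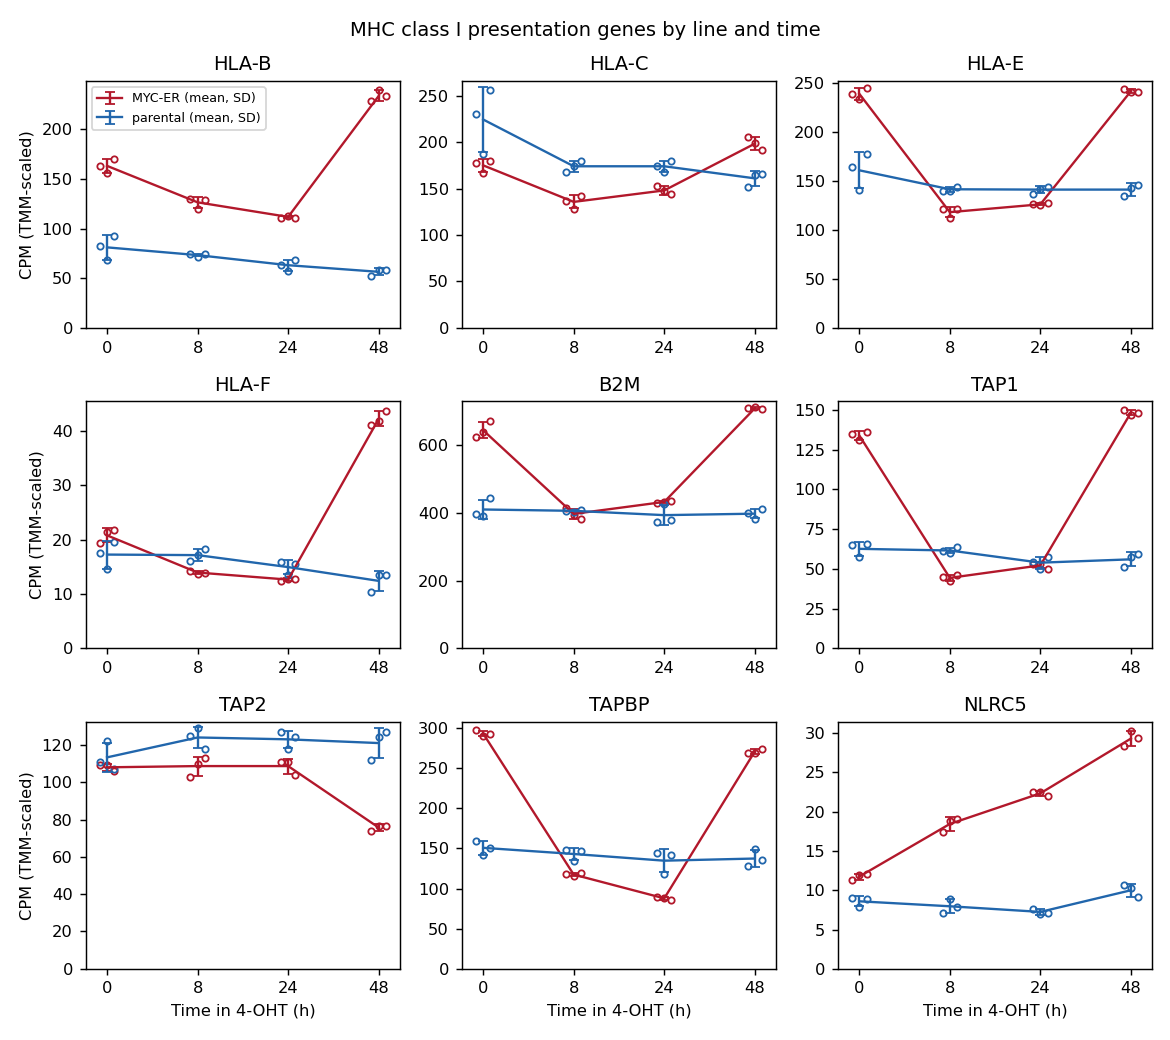
Level of each gene in CPM (y axes from 0) against hours in 4-OHT, with MYC-ER in red and parental in blue. Circles are single libraries, and lines and bars are the mean and SD of 3. In MYC-ER cells HLA-E, B2M, TAP1 and TAPBP dip at 8 and 24 h and recover at 48 h, NLRC5 climbs from 11.7 to 29.3 CPM, and TAP2 drops at 48 h to 75.7 CPM.

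TAP1 and TAP2, which form the peptide transporter together, changed differently in MYC-ER cells. TAP1 (ENSG00000168394.11, chr6:32845209-32853704) stood in MYC-ER cells at 135, 131 and 136 CPM at 0 h, at 44.8, 42.1 and 46.2 at 8 h, at 53.3, 53.3 and 50.1 at 24 h, and at 150, 147 and 148 at 48 h. Both early groups lay far below 0 h, and 48 h lay above every 0 h library. Its log2 change from 0 h was -1.59 (adjusted p 1.37e-15, with an SE of 0.062) at 8 h and -1.36 (adjusted p 2.19e-14, with an SE of 0.062) at 24 h. At 48 h it was 0.15 (adjusted p 0.0536), which did not pass in the main analysis and passed in 8 of 10 other settings.

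In parental cells TAP1 read 64.9, 57.6 and 65.4 CPM at 0 h, 61.1, 60.1 and 63.6 at 8 h, 54.5, 49.8 and 57.5 at 24 h, and 51.1, 57.8 and 59.2 at 48 h. The parental ranges overlapped each other in part, and those at 24 and 48 h overlapped the MYC-ER range at 24 h.

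TAP2 (ENSG00000204267.15, chr6:32821831-32838739), which lies next to TAP1, stood at 109, 109 and 106 CPM at 0 h in MYC-ER cells, 103, 110 and 113 at 8 h, 111, 111 and 104 at 24 h, and 73.8, 76.8 and 76.5 at 48 h. The first 3 times overlapped and 48 h lay below all of them. The change was 0.01 (adjusted p 0.913, with an SE of 0.057) at 8 h, 0.01 (adjusted p 0.92) at 24 h and -0.51 (adjusted p 1.55e-07, with an SE of 0.057) at 48 h. In parental cells TAP2 ranged from 107 to 129 CPM over all times and no change from 0 h passed. Per kilobase of the longest annotated transcript, the mean level of TAP1 in MYC-ER cells was 45.3 CPM at 0 h against 19.0 for TAP2. At 8 h the per-kilobase levels were 15.0 for TAP1 and 19.2 for TAP2, and at 48 h TAP2 was at 13.3 with TAP1 again above it. In parental cells the per-kilobase levels of TAP1 and TAP2 were 21.2 and 19.9 at 0 h, 20.8 and 21.8 at 8 h, 18.2 and 21.6 at 24 h, and 18.9 and 21.3 at 48 h. By these means TAP1 was above TAP2 at 0 h and below it at 8 and 24 h in both lines. At 48 h it was above TAP2 in MYC-ER cells alone. In parental cells, however, the 0 and 8 h libraries overlapped for both genes, so the change of order there rests on small differences of means.

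TAPBP (ENSG00000231925.11, chr6:33299694-33314078) encodes tapasin, the loading chaperone, and showed the largest fall of the 9 at 24 h. It read 297, 290 and 292 CPM at 0 h in MYC-ER cells, 118, 115 and 119 at 8 h, 89.1, 88.0 and 86.1 at 24 h, and 269, 269 and 274 at 48 h. The 4 groups did not overlap, and the 48 h libraries remained just below those of 0 h. The log2 change was -1.32 (adjusted p 1.34e-13, with an SE of 0.067) at 8 h, -1.74 (adjusted p 1.7e-15, with an SE of 0.068) at 24 h and -0.11 (adjusted p 0.182) at 48 h. TAPBP and TAP1 went different ways between 8 and 24 h, with a further fall for TAPBP (-0.42, adjusted p 1.35e-05) and a partial rise for TAP1 (0.23, adjusted p 0.00246). Parental TAPBP ranged from 118 to 159 CPM with no call at any time.

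B2M (ENSG00000166710.20, chr15:44711517-44718145) encodes beta-2 microglobulin, the light chain shared by every class I molecule, and was the most abundant of the 9 per kilobase in all groups. It stood at 623, 637 and 670 CPM in MYC-ER cells at 0 h, 414, 393 and 383 at 8 h, 430, 431 and 435 at 24 h, and 708, 711 and 705 at 48 h. The early groups lay below 0 h, by -0.70 (adjusted p 2.08e-10, with an SE of 0.055) at 8 h and -0.58 (adjusted p 6.16e-09, with an SE of 0.055) at 24 h on the log2 scale. The small excess at 48 h, 0.14 (adjusted p 0.0463, with an SE of 0.055), did not pass without MYC-ER 0 h replicate 1 or 2 or without any 1 of the 48 h replicates (0.11 to 0.14). Parental B2M ranged from 374 to 443 CPM, the range to which MYC-ER cells came down at 8 and 24 h.

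Among the heavy chains, HLA-E fell most. HLA-E (ENSG00000204592.9, chr6:30489509-30494194), the ligand of the natural killer receptor NKG2A, read 238, 233 and 245 CPM at 0 h in MYC-ER cells, 121, 112 and 121 at 8 h, 126, 125 and 127 at 24 h, and 244, 240 and 240 at 48 h. The early libraries all lay below those of 0 h, and the 48 h values overlapped those of 0 h. The log2 change was -1.02 (adjusted p 1.33e-12, with an SE of 0.059), then -0.92 (adjusted p 8.48e-12, with an SE of 0.059), then 0.02 (adjusted p 0.859).

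HLA-B (ENSG00000234745.11, chr6:31353875-31357179), a classical heavy chain that shows peptides to T cells, read 163, 156 and 170 CPM at 0 h, 130, 120 and 129 at 8 h, 111, 113 and 111 at 24 h, and 228, 239 and 233 at 48 h. Unlike HLA-E it ended above its start, and no groups of the MYC-ER series overlapped. Its log2 changes from 0 h were -0.37 (adjusted p 0.000346, with an SE of 0.079), -0.55 (adjusted p 3.38e-06, with an SE of 0.079) and 0.52 (adjusted p 1.34e-05, with an SE of 0.079).

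HLA-F (ENSG00000204642.14, chr6:29723434-29738532), a nonclassical heavy chain, had the largest overshoot. It read 19.3, 21.3 and 21.7 CPM at 0 h, 14.2, 13.7 and 13.9 at 8 h, 12.4, 12.7 and 12.8 at 24 h, and 41.1, 41.7 and 43.7 at 48 h. The 48 h libraries lay above all libraries of every other group, and the change was 1.02 (adjusted p 2.89e-08, with an SE of 0.1) after -0.57 (adjusted p 3.53e-05) and -0.72 (adjusted p 2.27e-06). An antisense row, HLA-F-AS1, held 5.6% to 31.7% as many counts as HLA-F, and whether counting used strand is not given in the sources used here.

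HLA-C (ENSG00000204525.16, chr6:31268749-31272092), the other classical heavy chain and a ligand of killer-cell immunoglobulin-like receptors, moved least of the heavy chains. It read 178, 167 and 180 CPM at 0 h, 137, 128 and 142 at 8 h, 153, 147 and 144 at 24 h, and 205, 199 and 191 at 48 h. The change was -0.37 (adjusted p 0.000256, with an SE of 0.077) at 8 h, -0.24 (adjusted p 0.00944, with an SE of 0.077) at 24 h and 0.18 (adjusted p 0.0657) at 48 h. With library size alone as the scaling, the 24 h value was -0.13 (adjusted p 0.0857). The 48 h value passed in some other settings, among them with the GC trend removed (0.22, adjusted p 4.79e-05). HLA-B and HLA-C are close paralogues and their annotated spans overlap in GENCODE release 29. These genes are also highly variable between people, and how reads that match several genes were assigned is not given in the sources used here, so the split of counts between them is uncertain.

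NLRC5 (ENSG00000140853.15, chr16:56989557-57083520), the coactivator that raises class I genes, went against the rest at 8 and 24 h. It read 11.3, 11.9 and 12.0 CPM at 0 h in MYC-ER cells, 17.4, 18.8 and 19.1 at 8 h, 22.5, 22.5 and 22 at 24 h, and 28.3, 30.2 and 29.4 at 48 h. Each time lay above the last without overlap. The log2 change from 0 h was 0.66 (adjusted p 1.35e-07, with an SE of 0.077), 0.93 (adjusted p 6.51e-10, with an SE of 0.077) and 1.32 (adjusted p 6.59e-12, with an SE of 0.078). Thus NLRC5 rose while 7 other genes were low and also while they recovered.

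At 48 h against 0 h, 5 of 9 genes passed (44.1% of all genes). HLA-B, HLA-F, B2M and NLRC5 were higher (23.4% of all genes) and TAP2 was lower (20.7%). Replicates did not overlap for 8 genes (62.3% of all genes). The count was 8 with library size alone as the scaling and 8 with a fit of only the groups compared. That scaling shifted the all-gene median from 0.029 to 0.191 (log2) here and the share of higher calls among all genes from 53.0% to 73.8%. With only the groups compared, calls over all genes rose too, from 9772 of 22158 to 12084 of 20188. Between 8 and 24 h, 3 of 9 genes passed (55.5% of all genes), TAP1 and NLRC5 up (28.4%) and TAPBP down (27.1%), and 8 genes did not overlap (65.0%). This count was 7 with library size alone, which moved the median of all genes from 0.05 to 0.256 and the share of higher calls from 51.2% to 67.8%.

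In parental cells the same treatment gave small changes. At 8 h 2 of 9 genes passed (31.0% of all genes), HLA-C and HLA-E, both lower (16.0%). At 24 h 5 of 9 passed (42.9%), all lower (21.7%), and at 48 h 6 of 9 passed (40.5%), of which 5 were lower (20.1%) and NLRC5 was higher (20.4%). Replicates did not overlap for 1, 3 and 4 of the 9 genes at these times, against 33.9%, 43.1% and 39.0% of all genes. The sizes ran from -0.52 (HLA-B at 48 h) to 0.22 (NLRC5 at 48 h) on the log2 scale. HLA-B at 48 h was the largest, with 82.0, 68.2 and 92.9 CPM at 0 h and 52.5, 58.7 and 58.1 at 48 h, ranges that did not overlap (39.0% of all genes). With trends on GC and length removed, however, this change was -0.06 (edgeR, adjusted p 0.409). HLA-C fell by 0.37 on the log2 scale at 8 h, by 0.37 at 24 h and by 0.48 at 48 h.

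These parental calls depended on processing, and some of them also on single libraries. Those of HLA-B and HLA-C stood without any 1 library, but not with trends on GC and length removed. Fitted on the parental groups compared alone, 0, 0 and 2 of the 9 genes passed at 8, 24 and 48 h. Calls over all genes fell too, to 1452 of 19596, 4923 of 19581 and 3274 of 19680. With each library's trend on GC content removed, 1 of the 9 genes passed at 24 h, and 8045 of 22158 over all genes. The transcripts of 7 of the 9 genes have a GC content of 54.8% to 62.7% (B2M 40.6%, TAP2 49.1%). The 24 h count was 8 without parental 0 h replicate 2, and 3 without parental 0 h replicate 3 or without parental 24 h replicate 2. The 8 h count was 4 without parental 0 h replicate 2, and 1 without parental 0 h replicate 1 or 3 or without parental 8 h replicate 1 or 2. The 48 h count was 3 without parental 48 h replicate 1.

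**Figure D2:**
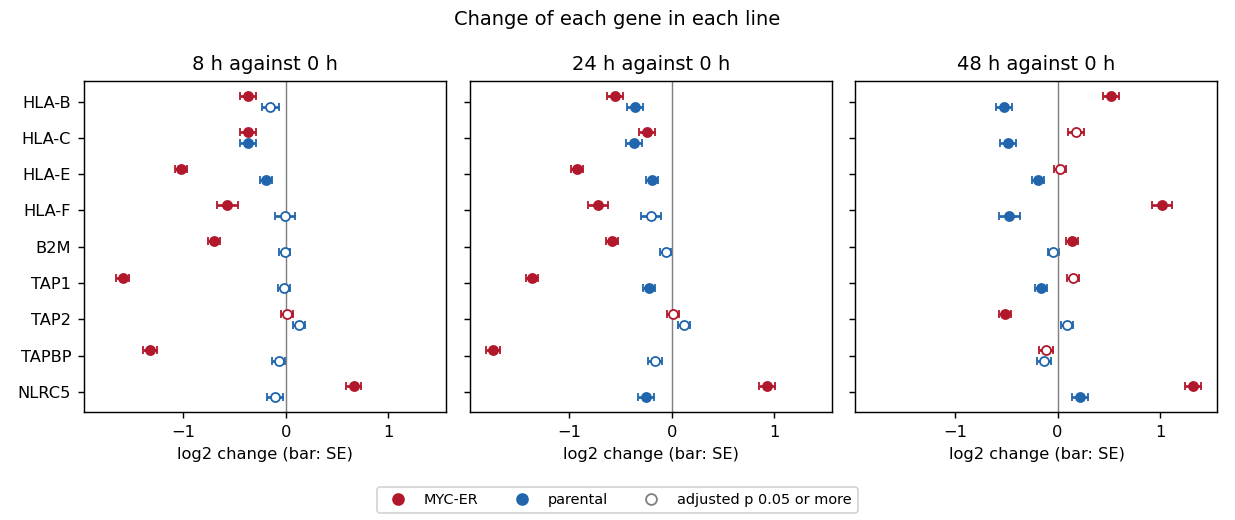
Log2 change of each gene from 0 h in MYC-ER (red) and parental (blue) cells at 8, 24 and 48 h, with SE as bars. Filled points had an adjusted p under 0.05 in the edgeR test. At 8 h TAP1 lies at -1.59 in MYC-ER and -0.02 in parental cells, and at 48 h HLA-F lies at 1.02 and -0.47.

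The difference between the lines in their response was tested as an interaction, taking the change in parental cells from that in MYC-ER cells. At 8 h 6 of 9 genes passed (55.2% of all genes), 5 lower (27.8%) and NLRC5 higher (27.3%). At 24 h again 6 passed (54.5%), 5 lower (26.8%) and NLRC5 higher (27.7%). The early group of 5 was HLA-E, HLA-F, B2M, TAP1 and TAPBP, from -0.51 (HLA-F and B2M at 24 h) to -1.58 (TAPBP at 24 h). HLA-B and HLA-C did not differ between the lines beyond the test at these times, with -0.22 (SE 0.11) and 0.00 (SE 0.11) at 8 h and -0.18 (SE 0.11) and 0.13 (SE 0.11) at 24 h. For HLA-C this value was -0.34 (adjusted p 1.19e-05) at 8 h and -0.14 (adjusted p 0.0369) at 24 h with the GC trend removed, and for HLA-B -0.48 (adjusted p 2.82e-06) and -0.36 (adjusted p 9.95e-05).

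At 48 h the interaction passed for 6 of 9 genes (45.0% of all genes), 5 higher (23.6%) and TAP2 lower (21.4%). HLA-E, at 0.20 (adjusted p 0.05), did not pass here and passed in 6 of 10 other settings. B2M, at 0.18 (adjusted p 0.0623), did not pass either. It passed in some other settings, among them with the GC trend removed (0.53, adjusted p 0.000313). HLA-F was highest at 1.49 (adjusted p 3.2e-08, with an SE of 0.14), then NLRC5 at 1.10, HLA-B at 1.04, HLA-C at 0.66 and TAP1 at 0.31. TAP2 was lower by -0.61 (adjusted p 2.85e-06, with an SE of 0.08). TAP1 did not pass with the GC trend removed (0.09, adjusted p 0.253). B2M at 24 h also did not pass with that trend removed (-0.23, adjusted p 0.067).

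Over the 8 groups the levels fell into different orders. For HLA-B and NLRC5 the 4 MYC-ER groups lay above the 4 parental groups. For TAP1 and TAPBP the order of the means was MYC-ER at 0 and 48 h, then all parental groups, then MYC-ER at 8 and 24 h. Replicates overlapped in part, however. For TAP1, MYC-ER 24 h overlapped parental 24 and 48 h, and for TAPBP, MYC-ER 8 h overlapped parental 24 h. HLA-E had that order too, and its 4 parental groups, 141 to 161 CPM on average, each overlapped the next. TAP2 had MYC-ER 48 h lowest and the other 7 groups, 108 to 124 CPM, each overlapping the next. The correlation of log2 group means over the 8 groups was 0.986 for HLA-E with TAP1, 0.968 for B2M with TAP1 and 0.958 for HLA-E with TAPBP, and -0.87 for HLA-B with TAP2. These describe 8 group means that share 1 scaling.

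The genes that feed and edit peptides were read as a list of 15, all of them tested. At 8 h in MYC-ER cells 5 rose and 6 fell, at 24 h 7 rose and 6 fell, and at 48 h 7 rose and 4 fell, with medians of 0.05, -0.04 and 0.16. All-gene shares were 32.2% higher and 35.4% lower at 8 h, 30.4% and 31.2% at 24 h, and 23.4% and 20.7% at 48 h. Genes of one complex went different ways. PSMB9, an interferon-induced catalytic subunit of the immunoproteasome, read 9.01 ± 0.32 CPM (SD, n = 3) at 0 h, 2.40 ± 0.345 after 8 h, 1.95 ± 0.0481 after 24 h and 14.7 ± 0.726 after 48 h. It shares a promoter region with TAP1 and lies on the other strand, and its row held 2.51% to 10.4% as many counts as TAP1. In GENCODE release 29 the annotated spans of PSMB9 and TAP1 overlap by 8770 bases. Whether counting used strand is not given in the sources used here, so the split of counts between them is uncertain. PSMB10, another such subunit, rose at 24 h (0.93), and PSMB8 fell at 8 h (-0.70) and rose at 24 h (0.30) and 48 h (0.71).

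The constitutive counterparts PSMB5, PSMB6 and PSMB7 rose at 8 h (0.52, 0.39 and 0.58) and at 24 h (0.51, 0.50 and 0.36). PSME1, a subunit of the proteasome activator PA28, fell by 1.09 on the log2 scale at 24 h, while PSME2, its partner, rose (0.25). The trimming peptidase ERAP1 went from 79.5 CPM on average to 19.6 at 24 h and 48.8 at 48 h, log2 -2.02 (adjusted p 2.94e-15, with an SE of 0.082) at 24 h. ERAP2 was lower at 8 h (-1.73) and 24 h (-0.85). TAPBPL, a tapasin relative that edits bound peptides, went from 20.8 to 7.82, 5.19 and 17.3 CPM. The general chaperones CALR and PDIA3 rose at 8 h (0.78 and 0.93), and CANX gave 0.17 with no call.

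The regulators list holds 22 genes of interferon signalling and of the class I enhancer complex, all tested. At 8 h 8 rose and 10 fell in MYC-ER cells, at 24 h 4 rose and 10 fell, and at 48 h 7 rose and 6 fell, to be read against the same all-gene shares. Its medians of -0.09, -0.03 and 0.04 were close to those of all genes (-0.10, -0.02 and 0.03). IRF1, an interferon-induced transcriptional activator, was lower at 8 and 24 h and higher at 48 h than at 0 h. It went from 34.0 ± 0.965 CPM (SD, n = 3) at 0 h to 21.1 ± 0.978 at 8 h, 14.3 ± 0.348 at 24 h and 71.1 ± 0.73 at 48 h, against 12.8 to 15.4 on average in parental cells. The log2 change at 24 h was -1.25 (adjusted p 1.01e-13, with an SE of 0.062) and at 48 h 1.06 (adjusted p 4.46e-12, with an SE of 0.061).

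The receptor chain IFNGR1 and its kinases JAK1 and JAK2 all fell at 24 h, by 1.71, 1.92 and 1.93 on the log2 scale. JAK1 went from 324 to 113, 85.7 and 180 CPM, and JAK2 was still at 9.78 CPM at 48 h after 31.8 at 0 h. STAT2, a transcription factor of the interferon response, fell by 1.53 at 8 h. SOCS1, the feedback inhibitor of these kinases, fell most of the list, from 14.9 to 2.31 and 0.616 CPM, and was at 8.37 CPM at 48 h. The other receptor chain, IFNGR2, rose at 8 h (1.27) and was not called at 24 h (0.04). RFX5, a subunit of the enhancer complex that NLRC5 works through, was lower at 8 h (-0.26) and higher at 24 h (0.27) and 48 h (0.87). RELA and NFKB1, subunits of NF-kB, were higher at 8 h (0.30 and 0.56). At 24 h RELA was lower than at 0 h (-0.34) and NFKB1 was not called (0.03), and at 48 h RELA averaged 65.1 CPM after 75.9 at 0 h.

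**Figure D3:**
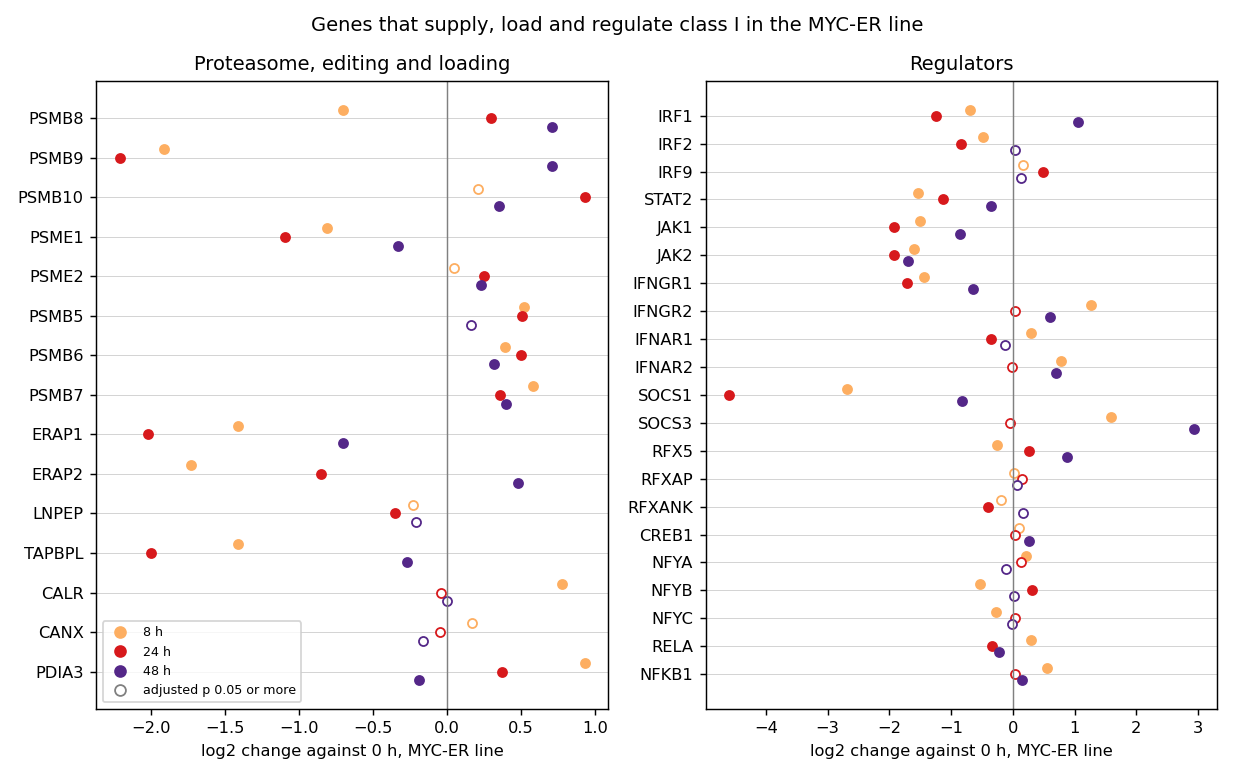
Log2 change from 0 h in MYC-ER cells (x axes, 1 point per time) for the 15 genes of peptide supply and loading (left) and the regulators (right, 21 of them drawn). Filled points had an adjusted p under 0.05. PSMB9, ERAP1 and TAPBPL lie near -2 at 24 h, PSMB5, PSMB6 and PSMB7 lie above 0 at all 3 times, and SOCS1 reaches -4.60 at 24 h.

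At 0 h many of these genes were also higher in MYC-ER than in parental cells, among them PSMB9 (2.20), ERAP1 (2.25), TAPBPL (1.69), IRF1 (1.40), JAK1 (1.90), JAK2 (2.17) and SOCS1 (3.90), all on the log2 scale. PSMB5, PSMB6 and PSMB7 were lower there (-0.99, -1.23 and -0.97). Over the supply list 7 of 15 were higher and 7 lower at 0 h, and over the regulators 11 of 22 were higher and 6 lower, against 31.6% and 32.7% of all genes. Comparisons of MYC-ER cells with 0 h and of the lines at 0 h share the MYC-ER 0 h libraries.

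MHC class II genes, which normally belong to antigen-presenting cells and can be induced in epithelium through CIITA, were read beside class I. Of 10 listed, 7 passed the filter, and most of these had counts near 0 outside MYC-ER 0 and 8 h. They passed through the groups in which they were high, so their levels are given as a description, with no count of calls. CIITA, the class II coactivator, held 3.21 to 7.91 CPM at 0 h, 0.193 to 0.326 after 8 h, 0.0116 to 0.253 after 24 h and 0.524 to 1.9 after 48 h. CD74, the invariant chain, held 248 to 281 counts per library at 0 h, 118 to 135 after 8 h, 3 to 8 after 24 h and 0 to 29 after 48 h. HLA-DRA held 140 to 168 counts at 0 h, 83 to 100 after 8 h, 0 to 6 after 24 h and 0 to 2 after 48 h, and 0 in all parental libraries at 0 and 8 h. These levels are all below 8 CPM, far under those of B2M.

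**Figure D4:**
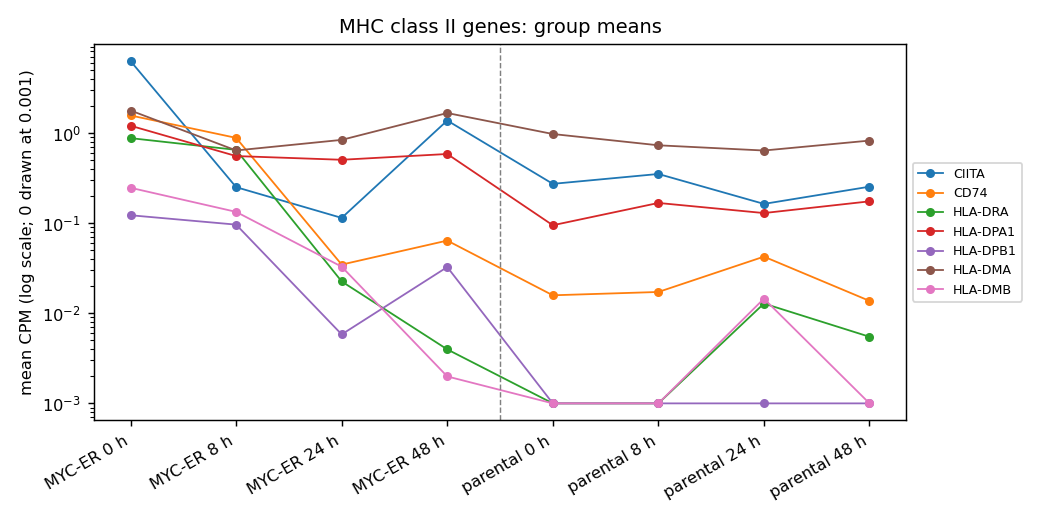
Mean CPM (log scale) of the 7 class II genes that passed the filter, in the 4 MYC-ER groups (left of the dashed line) and the 4 parental groups. A mean of 0 is drawn at 0.001. CIITA falls from 6.25 to 0.114 CPM between 0 and 24 h in MYC-ER cells and reads 1.37 at 48 h.

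Summed markers of other cell types were lower at 8 and 24 h than at 0 h in MYC-ER cells, and their part in the results was not tested. At 48 h the endothelial sum had partly come back, while the fibroblast and leukocyte sums stayed well below 0 h. The summed level of the 6 fibroblast markers was 370 to 377 CPM in MYC-ER cells at 0 h, 102 to 109 after 8 h, 79.9 to 91.8 after 24 h and 121 to 130 after 48 h, against 77.3 to 133 in parental cells. Nearly all of it came from COL1A1 and DCN. The 4 endothelial markers summed to 36.8 to 42.0 CPM at 0 h, 1.14 to 1.43 after 8 h, 1.79 to 1.83 after 24 h and 25.3 to 26.7 after 48 h, mostly from KDR at 0, 24 and 48 h, and CDH5 had 0 counts throughout. The 8 leukocyte markers summed to 59.5 to 64.0 CPM at 0 h, 38.9 to 42.5 after 8 h, 30.4 to 33.5 after 24 h and 38.1 to 41.5 after 48 h, mostly from CSF1R and CD68. The 8 epithelial markers summed to 13800 to 14200 CPM at 0 h, 13300 to 15000 after 8 h, 9690 to 10100 after 24 h and 9520 to 10200 after 48 h, against 16600 to 28100 in parental cells. KRT5 made up most of that sum and fell from 12500 CPM on average at 0 h to 7090 at 24 h. Of the 8, however, 5 were higher and 2 lower at 24 h (30.4% and 31.2% of all genes). EPCAM went from 1.93 to 75.8 CPM and KRT14 from 626 to 1630.

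The genes whose pattern over the 8 group means was most like the mean profile of the 9 were HS1BP3 (Pearson r 0.985), UBE2L6 (0.981), CSF1 (0.976), ODF3B (0.972) and CCS (0.971), out of 9672 other genes with at least 10 CPM on average. Mean log2 CPM of CSF1, a macrophage growth factor, was 5.77 at 0 h, 1.87 after 8 h, 2.17 after 24 h and 7 after 48 h in MYC-ER cells and 1.97 to 2.33 in parental cells. UBE2L6, an enzyme of the ISG15 conjugation pathway, gave 5.03, 4.08, 4.32 and 5.21 in MYC-ER cells. Each of the 9 is itself part of the mean profile, so their r cannot be set beside those of the other genes. Of the 9 themselves, TAP1 (0.983), HLA-E (0.97) and B2M (0.969) lay closest to their mean profile, NLRC5 (0.412) and HLA-C (0.536) far from it, and TAP2 ran against it (-0.788). These r describe 8 points each.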

How the data were processed

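RNA was measured in 24 libraries (3 replicates of 8 line by time groups, taken from the labels). The deposited table gives whole-number counts per gene, not normalised by the authors. Per the submitters' processing notes, Trimmomatic 0.39, STAR, StringTie 2.1.3b and GRCh38 were used. The annotation release and the handling of strand and of multiply matching reads are not given in the sources used here, so a count may be an estimate from coverage, and antisense, read-through and paralogous rows are uncertain. A read-through row, for example, held 0.402% to 9.12% as many counts as TAP2.

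Symbols came from a name table (60295 of 60668 rows matched). The filterByExpr step left 22158 genes, and TMM factors scaled the libraries. A model with a mean for every group was fitted to the 24 libraries in edgeR 4.0.16 under R 4.3.3. Quasi-likelihood tests, both directions counted, gave p-values for each contrast, adjusted by Benjamini-Hochberg over its genes, and 0.05 was the threshold. The test was tried on simulated counts. CPM use TMM-scaled totals (prior count 2 for log2), and per-kilobase levels use the longest GENCODE release 29 transcript. Coordinates and promoters are from RefSeq, GRCh38.p14.

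The genes, lists and settings were chosen with earlier results of these data known. Lists cover peptide supply, regulators, class I-like proteins, class II, interferon-stimulated genes, lymphocyte ligands and markers of 4 cell types. Any gene of the first 2 lists could be named, and of each other list the 3 called genes with the largest change at 24 h in MYC-ER cells. The genes most alike were ranked by r over the 8 group means. Alternatives were upper quartile scaling, library size alone, DESeq2 size factors, no filter, at least 10 counts in every library, the DESeq2 1.42.0 Wald test, only the groups compared, a replicate block, removal of each library's lowess trend (span 0.3) with GC, alone or together with length, and leaving out each library. Their use on genes that are not among the 9 was added after seeing the data. Single values of some listed genes are not reported here.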

Additional observations from a re-analysis of the deposited data

Results flagged for a closer look

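MYC-ER and parental cells changed differently under 4-OHT for the genes below, by the interaction test (edgeR, adjusted p under 0.05). Values are the MYC-ER log2 change minus the parental log2 change. At 8, 24 and 48 h, 55.2%, 54.5% and 45.0% of all genes passed, and the tests at these times share the 0 h libraries. At 8 h the values were -0.83 for HLA-E, -0.57 for HLA-F, -0.68 for B2M, -1.57 for TAP1, -1.24 for TAPBP and 0.76 for NLRC5. At 24 h they were -0.74 for HLA-E, -0.51 for HLA-F, -0.51 for B2M, -1.14 for TAP1, -1.58 for TAPBP and 1.18 for NLRC5. At 48 h they were 1.04 for HLA-B, 0.66 for HLA-C, 1.49 for HLA-F, 0.31 for TAP1, -0.61 for TAP2 and 1.10 for NLRC5. HLA-F is the gene whose difference changed direction, lower at 8 and 24 h and higher at 48 h in MYC-ER cells, together with TAP1, whose 48 h value did not pass with GC trends removed.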

How the results depend on the processing

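Over 10 other settings, 955 of 1080 single-gene values for the 9 genes kept their direction and their side of the threshold, 32 lost a call, 68 gained one and 25 changed sign. Without 1 library each, 763 of 810 did, 27 lost a call, 20 gained one and 0 changed sign. For changes of other named genes, 2791 of 2894 values did, with 0 changes of sign.

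The number of the 9 genes called at 48 h against 0 h in MYC-ER cells was 8 with library size alone and 8 with only the groups compared, after 5. Between 8 and 24 h it was 7 with library size alone, 6 with the upper quartile, 5 with the GC trend removed, 6 with GC and length trends removed and 7 with only the groups compared, after 3. In parental cells it was, with GC and length trends removed, 4 after 8 h, 3 after 24 h and 3 after 48 h, 1 at 24 h with the GC trend removed, and 0, 0 and 2 with only the groups compared, after 2, 5 and 6. Calls over all genes in parental cells also fell with only the groups compared, to 1452 of 19596, 4923 of 19581 and 3274 of 19680. In MYC-ER cells they rose under that setting. At 48 h against 0 h they went from 9772 of 22158 to 12084 of 20188, and between 8 and 24 h from 12296 of 22158 to 12789 of 19394. Without 1 library the counts of the 9 genes were 8 to 8 and 8 to 8 at 8 and 24 h, 4 to 5 at 48 h, 3 to 4 between 8 and 24 h and 9 to 9 between 24 and 48 h in MYC-ER cells. They were 1 to 4, 3 to 8 and 3 to 7 in parental cells, 7 to 8 between lines at 0 h, and 6 to 7, 6 to 7 and 6 to 8 for the interactions. The share of higher calls at the 48 h interaction went from 52.5% to 63.5% with library size alone.

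Changes of sign, on the log2 scale, were as follows, and their cause was not tested. In MYC-ER cells TAP2 was -0.13 at 8 h with the upper quartile, and between 8 and 24 h 0.21 with library size alone and 0.12 with GC and length trends removed. With the GC trend removed, parental TAP1 was 0.16 after 8 h, 0.03 after 24 h and 0.07 after 48 h, and at 24 h HLA-C was 0.01 and NLRC5 0.01. With GC and length trends removed, parental 8 h values were 0.15 for HLA-B, 0.27 for HLA-F and 0.17 for TAP1. At 24 h they were 0.11 for HLA-B, 0.16 for HLA-C, 0.08 for HLA-E, 0.23 for HLA-F and 0.08 for TAP1, and at 48 h 0.03 for HLA-C, 0.08 for HLA-E and 0.13 for TAP1. HLA-C was 0.17 between lines at 0 h under that setting. The HLA-C interaction was -0.34 at 8 h and -0.14 at 24 h with the GC trend removed, and -0.46 and -0.40 with both trends removed, and the TAPBP interaction at 48 h was -0.20 with the GC trend removed.

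With the replicate number as a block, 8, 8, 6, 4 and 9 genes were called in the MYC-ER contrasts and 2, 5 and 6 in the parental ones. The block moved B2M at 48 h to an adjusted p of 0.0556. Same-numbered libraries correlated at -0.382 to 0.422 over their deviations from group means, and in no contrast were all 3 above 0.1. Between the lines at 0 h, however, each MYC-ER library correlated best with the parental library of its own number (0.0306, 0.422 and 0.246). That was so for all 3 in no other contrast, and the numbers were not taken as pairs. For the lines at 0 h, the block changed no call among the 9 genes. Depth limits the class II genes, which had under 10 counts in many libraries, and not the 9 genes.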

Other observations

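Ligands that cytotoxic lymphocytes read beside class I were called in both directions. Of 12 listed, 11 were tested, and 9 of them were lower and 2 higher in MYC-ER than in parental cells at 0 h (32.7% and 31.6% of all genes). In MYC-ER cells 6 rose and 3 fell at 8 h (32.2% and 35.4% of all genes), and 5 rose and 3 fell at 24 h (30.4% and 31.2%). MICB, a ligand of the activating receptor NKG2D, went from 3.62 CPM at 0 h to 6.97 at 8 h, 9.49 at 24 h and 6.23 at 48 h (log2 1.39 at 24 h against 0 h). CD274, which encodes the checkpoint ligand PD-L1, went from 2 to 0.434, 0.75 and 1.60 CPM (-1.41 at 24 h). NECTIN2, a ligand of DNAM-1 and TIGIT, was lower at 24 h (-1.15).

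Class I-like proteins and interferon-stimulated genes were also called in both directions at 24 h. Of 6 class I-like genes, 2 were higher and 2 lower at 24 h in MYC-ER cells (30.4% and 31.2% of all genes). MR1, which shows microbial metabolites to MAIT cells and also pairs with B2M, went from 178 CPM at 0 h to 38.7 at 8 h, 51.2 at 24 h and 141 at 48 h (log2 -1.79 at 24 h), AZGP1 fell (-2.16), and CD1D rose (1.51, at under 2 CPM in all groups). HFE, named after its value was seen, rose at 24 h (0.26). Of 15 interferon-stimulated genes, 2 rose and 10 fell at 8 h (32.2% and 35.4% of all genes), 6 rose and 4 fell at 24 h (30.4% and 31.2%), and 8 rose and 0 fell at 48 h, where 23.4% of all genes rose and 20.7% fell. GBP2 went from 50.9 to 10.5, 9.5 and 66.5 CPM, whereas IFI27 and OAS2 were higher at 24 h (2.16 and 1.82).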
